A study of Mus musculus with 16 samples.

Results

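This comparison set the endothelial cells (ECs) of mutant mice against the astrocytes (AST) of the same mice. Its members were chosen from the deposited table of raw read counts as the 4 mutant EC columns and the 4 mutant AST columns, paired by the animal number in the column name (animals 2, 13, 18 and 21), so that 8 of the 16 libraries of the series enter it, each with all of its genes. The study asked what the loss of Hmgb1 from astrocytes at birth does to astrocytes and to brain vessels, and the cell type comparison shows what separated the isolates within the mutants.

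The mutants, called Hmgb1ΔAstro, carried floxed Hmgb1 alleles (flx/flx) and an Aldh1L1-Cre/ERT2 bacterial artificial chromosome transgene, in which a tamoxifen-dependent Cre is driven by the promoter of Aldh1l1, a gene of astrocytes. The control animals of the series, called wild type here, were littermates with the same floxed alleles and no Cre. All pups of both genotypes had received tamoxifen on postnatal days 0, 1 and 2, and the cerebral cortex was taken on postnatal day 14 from males and females. Cortices were dissociated, myelin and CD45+ cells (leukocytes and microglia) were depleted, ECs were captured on beads against CD31, and astrocytes were then captured on beads against ACSA-2 from the cells that remained. Cell type therefore cannot be told apart from the bead and from its place in the isolation.

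Cortical capillaries are lined by ECs that seal their contacts with tight junctions, keep few transport vesicles and move nutrients with membrane carriers. Astrocytes surround these vessels with endfeet, which hold water and potassium channels, and take up the transmitters that neurons release. The cells also signal to each other across a shared basement membrane, astrocytes supplying VEGF, WNT7 and Norrin, and ECs answering through receptors for them.

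The 8 libraries held between 16076010 and 23132312 counted reads and between 24029 and 27113 genes with a read. The first principal component took 92.1% of the variance and parted the cell types, and the second took 2.96% and parted animals 2 and 13, whose libraries held Y-linked transcripts, from animals 18 and 21, whose libraries held under 1 CPM of them. All 15 astrocyte markers were higher in the AST libraries and all 15 endothelial markers in the EC libraries. Astrocyte transcripts were nonetheless present in every EC isolate: the median astrocyte marker stood in ECs at 1.86%, 2.19%, 3.76% and 3.801% of its AST level in animals 2, 13, 18 and 21, while the median endothelial marker stood in astrocytes at 0.0990% to 0.177% of its EC level. An EC level of a few percent of the AST level is thus no larger than that of the astrocyte markers themselves. In bulk libraries, fewer cells of a type and less RNA per cell cannot be told apart.

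Levels below are read counts scaled to the library total (CPM), given in the order animal 2, 13, 18, 21. Fold changes are log2 of EC over AST from edgeR's quasi-likelihood model with the animal as a block, ± standard error (SE), so positive values are higher in ECs. Fold changes given with an SE passed the test unless stated. Of 16508 genes tested, 12796 (77.5%) passed a Benjamini-Hochberg adjusted p of 0.05, 6365 (38.6%) higher in ECs and 6431 (39.0%) higher in astrocytes. Beyond a log2 fold change of 1 the numbers were 3657 (22.2%) and 4337 (26.3%). For 12269 genes (74.3%) the 4 EC and the 4 AST values did not overlap. The sides had different reach. Among genes with at least 20 CPM in the higher cell type, 220 were beyond 6 in favour of ECs and 0 beyond -6 in favour of astrocytes, whose largest differences ended near the level at which astrocyte markers were found in the EC libraries.

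**Figure D1:**
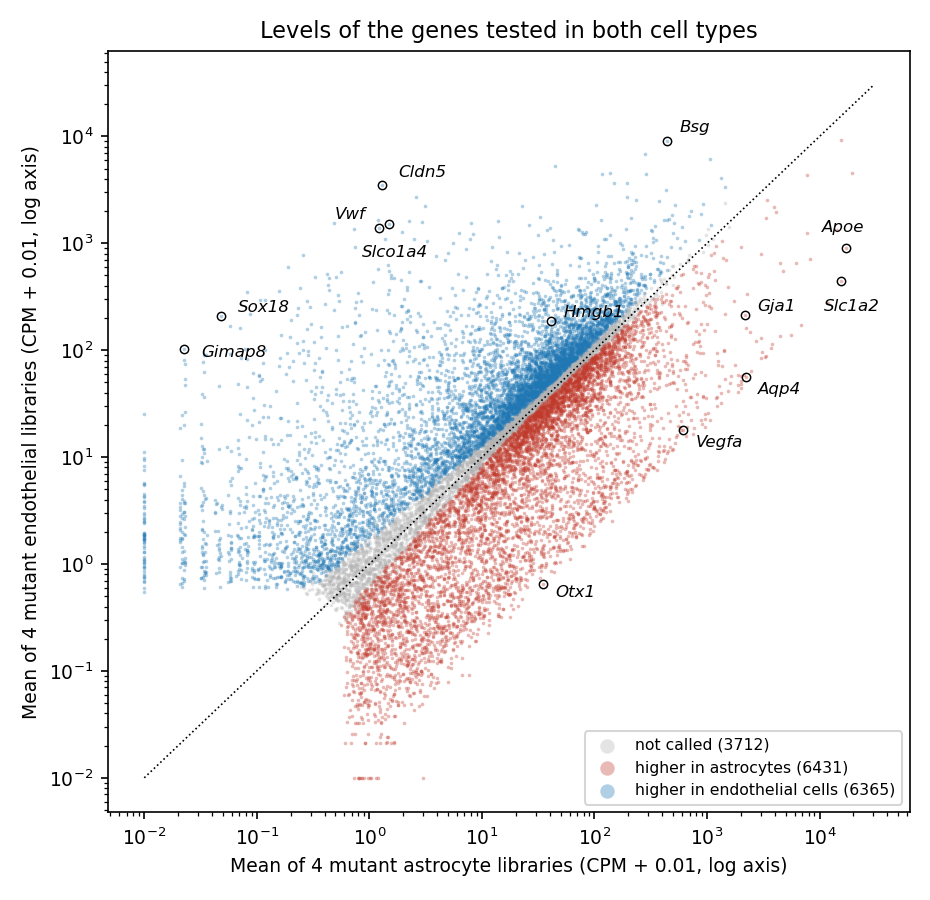
Mean CPM (plus 0.01) of the 4 mutant AST libraries against that of the 4 mutant EC libraries, both on log axes, for the 16508 genes tested, coloured by call, with the line of equal levels dotted. EC-enriched genes such as Gimap8 reach the left edge, while AST-enriched genes such as Slc1a2 and Aqp4 stop along a diagonal below the line.

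Hmgb1, the floxed gene (GRCm39 chr5:148983445-149121815, minus strand), encodes a chromatin protein that also acts as an extracellular alarm signal. It was counted at 32.4, 39.03, 42.02 and 50.6 CPM in mutant astrocytes and at 175, 194, 189 and 188 CPM in mutant ECs. Every EC library lay above every AST library (2.12 ± 0.10, edgeR adjusted p = 1.04e-06). An exact two-sided permutation test of log2(CPM + 1) gave p = 0.0286, the smallest that 4 against 4 allows. The permutation took the libraries as independent and did not use their pairing by animal. In the wild types astrocytes held 88.1, 89.2, 127 and 118 CPM and ECs 177, 185, 196 and 209 CPM in animals 5, 9, 19 and 22. The EC libraries of both genotypes overlapped, and the mutant AST libraries were below all others.

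Levels of different genes were compared per length, as transcript shares (TPM, mean ± SD, n = 4). The rankings took nuclear protein-coding genes only, so mitochondrially encoded genes had no place in them. In astrocytes Apoe, the main apolipoprotein of the brain, came highest at 21609.9 ± 1409 TPM. It was followed by the peptide-processing enzyme Cpe at 19995 ± 1313 and the matrix protein Sparcl1 at 13150.5 ± 1172. Sparcl1 was also abundant in ECs at 3049.8 ± 163 TPM. Glutamine synthetase (Glul, 9870.5 ± 1433), the glutamate transporter Slc1a2 (5611 ± 1013) and clusterin (Clu, 4994 ± 1356) were among the next. In ECs basigin (Bsg), the partner protein of lactate carriers, came highest at 16419 ± 790.4 TPM, followed by claudin 5 (Cldn5) at 12327 ± 535 TPM, against 4.54 ± 2.46 TPM in astrocytes. Sparc (7122 ± 136), the lactate and ketone carrier Slc16a1 (4189 ± 394) and the large neutral amino acid carrier Slc7a5 (3517 ± 337) also ranked within the 10 highest EC genes. With the length of the longest annotated transcript, 15 of the 20 genes of both rankings kept a place, and Slc16a1 and Slc7a5 did not. Neighbouring ranks such as Sparcl1 and Cst3 (13119 ± 1597) in astrocytes, or Rplp1 (4561 ± 354) and Fth1 (4455 ± 446) in ECs, did not differ beyond their SD.

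The largest differences in favour of ECs belonged to genes with next to no reads in astrocytes. Gimap8, of the immunity-associated GTPases, had 1 read in the 4 AST libraries and 7938 in the 4 EC libraries, where its level was 98.01, 88.7, 107 and 117 CPM, a ratio of 8483 (exact 95% counting interval 1522 to 335093). Its neighbours on chromosome 6 behaved alike: Gimap4 had 1 read against 4059, and Gimap5 had 0 against 1977, at least 704-fold higher in ECs when 3 reads over the 4 AST libraries are taken as the floor. The transcription factor gene Sox18 had 3 reads against 16123, and the glutamine carrier Slc38a5 had 15 against 46038. Adgrl4, an adhesion receptor of ECs, had 38 reads against 122853, and Ly6c1, a surface antigen of brain ECs, 20 against 61783. The others of the 12 largest were AU021092, Dipk2b, Srarp, Cyyr1 and Sigirr. Fitted fold changes of such genes (11.48 to 12.41) depend on the small count edgeR adds and serve as a ranking, and leaving out 1 animal moved several by over 1 (Sox18 reached 14.95 without animal 18). Intervals cover counting error only.

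The largest differences in favour of astrocytes spanned a narrow range, such as -5.70 for Gli2 and -5.91 for Cyp4f15. Among the 12 largest were the GABA transporter Slc6a11, the serine and alanine carrier Slc7a10, the histamine receptor Hrh1, the potassium channel Kcnn2, the peptidase Folh1 and the transcription factors Otx1 and Gli2. Otx1 was at 36.1, 37.2, 31.99 and 32.98 CPM in astrocytes and 0.268, 0.413, 0.941 and 0.933 CPM in ECs. Hrh1 was at 53.8, 38.1, 43.8 and 37.6 against 0.491, 0.642, 1.16 and 1.06 CPM. For both, EC levels were lowest in animals 2 and 13, the animals whose EC libraries also held the least of the astrocyte markers.

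Transcription factors that define endothelium were all on the EC side. All 28 of the list passed the test in favour of ECs, with a median log2 fold change of 6.85, against 38.6% of all genes tested in that direction and a median of 0.01 over all genes. Erg, an ETS factor that maintains endothelial identity, was at 0.2596, 0.279, 0.202 and 0.346 CPM in astrocytes and 309, 294, 286 and 261 CPM in ECs (9.92 ± 0.15, edgeR adjusted p = 4.91e-08). Sox17, which drives arterial fate, was at 0.156, 0.1396, 0.0504 and 0.0432 against 316, 306, 292 and 274 CPM (11.43 ± 0.19). Foxf2 (6.76 ± 0.35) and Foxq1 (7.99 ± 0.24), forkhead factors of brain vessels, and the flow-responsive Klf2 (5.50 ± 0.28) followed the same direction. Lef1, which carries WNT signals to DNA, had the smaller value of 3.44 ± 0.13. Epas1, the hypoxia factor HIF-2α, was abundant in both, at 426, 466, 359 and 392.2 CPM in astrocytes and 1868, 1582, 1609 and 1500.4 CPM in ECs, without overlap (1.92 ± 0.12).

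Since ETS factors such as Erg and Ets1 (6.95 ± 0.40) bind DNA around the letters GGAA, promoters were read for CAGGAA on either strand (TTCCTG is its reverse complement) in the RefSeq promoter table (GRCm38.p6, 250 bases before to 50 after each start). The motif occurred in 33.4% of all 27025 genes with a promoter, in 30.4% of the 11688 genes tested that had one. It stood in 50.9% of the 424 genes higher in ECs beyond log2 4 and in 31.3% of the 571 genes higher in astrocytes beyond log2 4. Genes of both sets had at least 5 CPM in the higher cell type. A gene counted if any of its promoter entries held the motif, and entries per gene were not compared between sets. The ETS-like CCGGAAGT (reverse complement ACTTCCGG), typical of widely used promoters, stood in 1.65% of the EC genes, 0.701% of the AST genes, 8.26% of the genes tested and 4.31% of all. These letters were chosen after 28 short motifs had been counted, and a match is a description of the sequence. Nor did the marker genes part by it, since 6 of the 11 endothelial markers with an entry and 6 of the 12 astrocyte markers held the motif. Median GC content was 56.3% in promoters of the EC genes, 58.0% in those of the AST genes and 60.3% in the genes tested. In the same order TATAAA stood in 14.9%, 12.3% and 9.07%, and GTAAACA in 2.83%, 3.85% and 3.19%. The part of base composition was not tested. Of the endothelial transcription factors with an entry, 5 of 16 held CAGGAA. The promoters of Tek and Tie1, paired receptors of the angiopoietin system, and of the glutamate transporter gene Slc1a2 are shown as holders of the motif (Tie1 was chosen after its values were seen), and that of Cldn5 as an EC promoter without it. CAGGAA or TTCCTG is in capitals.
Tek, chr4:94739039-94739338, plus strand: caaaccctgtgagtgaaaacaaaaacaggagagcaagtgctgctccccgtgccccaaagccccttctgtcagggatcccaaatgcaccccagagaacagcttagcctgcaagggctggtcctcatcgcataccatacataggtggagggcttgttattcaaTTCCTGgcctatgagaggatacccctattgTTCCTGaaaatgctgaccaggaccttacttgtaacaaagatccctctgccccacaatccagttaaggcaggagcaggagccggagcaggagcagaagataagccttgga
Tie1, chr4:118489800-118490099, minus strand: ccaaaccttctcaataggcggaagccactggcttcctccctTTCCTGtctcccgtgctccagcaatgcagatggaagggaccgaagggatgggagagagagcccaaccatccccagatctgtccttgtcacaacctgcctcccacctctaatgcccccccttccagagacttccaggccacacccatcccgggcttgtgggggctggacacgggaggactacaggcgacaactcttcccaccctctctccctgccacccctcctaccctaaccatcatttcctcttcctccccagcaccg
Cldn5, chr16:18776597-18776896, plus strand: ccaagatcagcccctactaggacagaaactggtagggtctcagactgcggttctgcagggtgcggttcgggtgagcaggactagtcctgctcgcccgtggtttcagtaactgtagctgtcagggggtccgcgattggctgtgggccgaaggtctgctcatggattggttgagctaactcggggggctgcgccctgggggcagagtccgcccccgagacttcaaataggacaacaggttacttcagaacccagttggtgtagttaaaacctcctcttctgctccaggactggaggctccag
Slc1a2, chr2:102706188-102706487, plus strand: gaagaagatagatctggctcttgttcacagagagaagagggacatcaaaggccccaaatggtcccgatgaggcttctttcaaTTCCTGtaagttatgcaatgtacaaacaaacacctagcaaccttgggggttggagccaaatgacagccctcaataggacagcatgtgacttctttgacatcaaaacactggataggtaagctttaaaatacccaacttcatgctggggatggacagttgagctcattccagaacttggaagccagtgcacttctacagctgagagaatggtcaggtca

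Of 16 barrier junction genes tested, 11 were higher in ECs and 4 in astrocytes (median 5.45), against 38.6% and 39.0% of all genes. Cldn5, the claudin that seals brain capillaries, was at 0.986, 0.791, 2.37 and 0.994 CPM in astrocytes and 3261, 3749, 3597 and 3389.8 CPM in ECs (11.39 ± 0.32, edgeR adjusted p = 1.18e-07). Occludin (Ocln) was at 7.22, 8.14, 4.69 and 3.07 against 287, 275, 249 and 209 CPM (5.44 ± 0.18). VE-cadherin (Cdh5), the adhesion protein of endothelial contacts, was at 5.04, 5.54, 5.499 and 6.05 against 1089, 964, 992 and 961 CPM (7.42 ± 0.14). No AST value of these genes came near an EC value. The scaffold Tjp1 was shared more evenly (1.52 ± 0.11). Junction adhesion molecules Jam2 (-0.53) and Jam3 (-1.29), N-cadherin (Cdh2, -0.28) and cingulin (Cgn, -3.10, at most 1.303 CPM) were the members higher in astrocytes. Without animal 21 the value for Cgn was -5.66. The call for Cdh2, whose groups overlapped, was lost without animal 2, 13 or 18 (edgeR adjusted p between 0.0524 and 0.140) and without TMM scaling (0.1002).

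Carriers and pumps were the most uniform of the barrier lists, with 20 of 21 higher in ECs (median 4.98), against 38.6% of all genes. The transferrin receptor Tfrc, which brings iron into the brain, was at 123, 132, 157 and 134 CPM in astrocytes and 3807, 5124, 4578 and 4755 CPM in ECs (4.98 ± 0.15). The glucose transporter Slc2a1 was at 145, 112, 111 and 89.9 against 2036, 1972, 1458 and 1174 CPM (3.76 ± 0.13), and within ECs animals 18 and 21 were lower than animals 2 and 13. P-glycoprotein (Abcb1a, 8.70 ± 0.35), the drug efflux pump, and the organic anion carrier Slco1a4 (10.07 ± 0.21) were almost absent from astrocytes. Others were also abundant in astrocytes: the thyroxine carrier Slco1c1 was at 1345, 1558, 1609 and 1292 CPM there and 3435, 3484, 3465 and 3072 CPM in ECs (1.14 ± 0.12). The lysolipid carrier Mfsd2a was at 200.4, 229, 133 and 118 against 924, 1029.6, 1071 and 995 CPM (2.54 ± 0.20). The manganese exporter Slc30a10 was the exception, at 252, 252, 268 and 288 CPM in astrocytes and 60.8, 36.9, 36.2 and 56.1 CPM in ECs (-2.59 ± 0.15).

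Vesicle genes were split. Of 17 tested, 9 were higher in ECs and 5 in astrocytes, against 38.6% and 39.0% of all genes tested. Caveolin 1 (Cav1, 4.64 ± 0.14) and its coat partner Cavin1 (3.99 ± 0.12) were higher in ECs, while the endocytic receptor Lrp1 (-3.37 ± 0.15), Pacsin3 (-4.10 ± 0.12) and Flot2 (-2.38 ± 0.08) were higher in astrocytes. Plvap, a diaphragm protein of leaky vessels, was close to absent from both, at 0.986, 1.07, 1.16 and 1.51 CPM in astrocytes and 0.983, 2.201, 1.11 and 2.799 CPM in ECs, and did not pass the test (0.43 ± 0.29, edgeR adjusted p = 0.204).

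**Figure D2:**
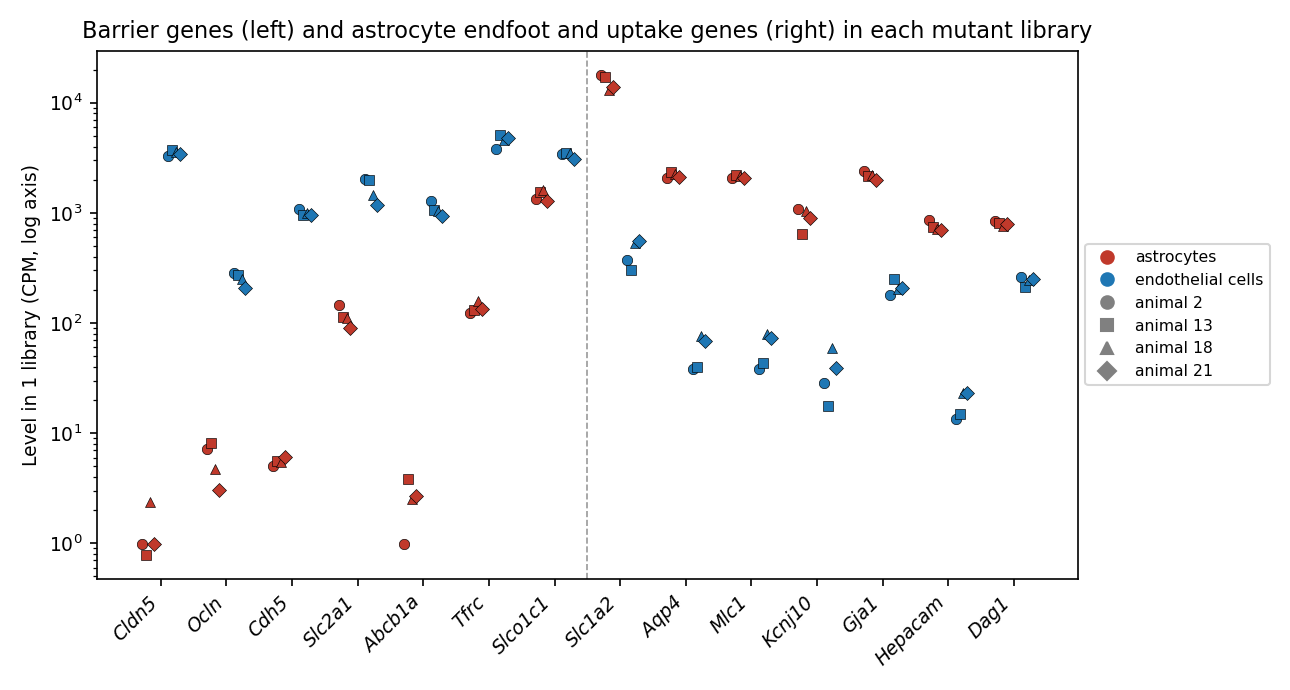
CPM on a log axis in each mutant library for 7 barrier genes (left of the dashed line) and 7 endfoot and uptake genes (right); red symbols are AST libraries, blue symbols EC libraries, and the symbol shape gives the animal. EC and AST values do not overlap for any of these genes, and the EC values of Aqp4, Mlc1 and Hepacam are lower in animals 2 and 13 than in animals 18 and 21.

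Genes for leukocyte docking, clotting and vessel tone were higher in ECs for 19 of 23 members (median 4.06), against 38.6% of all genes. Von Willebrand factor (Vwf), which tethers platelets, was at 1.09, 2.05, 1.87 and 0.908 CPM in astrocytes and 1587, 1218, 1381 and 1929 CPM in ECs (9.93 ± 0.34). Endothelial nitric oxide synthase (Nos3, 9.26 ± 0.34), the adhesion molecule Icam1 (6.28 ± 0.25), thrombomodulin (Thbd, 3.72 ± 0.18) and Tfpi, an inhibitor of tissue factor (4.06 ± 0.15), took the same direction. Other members of the list were on the AST side. Tissue factor itself (F3), which starts clotting, was at 466, 501, 335 and 322 CPM in astrocytes and 8.09, 15.1, 11.01 and 11.6 CPM in ECs (-5.23 ± 0.20). Vcam1, a docking protein for leukocytes, was at 769.9, 878, 936 and 859.6 against 95.02, 76.7, 142 and 121 CPM (-3.10 ± 0.15), and the endothelin receptor Ednrb at 1273, 1424, 1854 and 1634 against 21.4, 27.7, 59.4 and 57.9 CPM (-5.41 ± 0.24).

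Basement membrane genes were higher in ECs for 21 of 27 members (median 2.81), against 38.6% of all genes tested. The collagen IV chain Col4a1 was at 357, 404, 163 and 217 CPM in astrocytes and 5127, 3935, 4097 and 4786 CPM in ECs (3.99 ± 0.26). The chain Col4a2 (4.61 ± 0.26), laminin α4 (Lama4, 4.61 ± 0.18), nidogen (Nid1, 3.89 ± 0.18) and perlecan (Hspg2, 4.41 ± 0.21) took the same direction. Agrin (Agrn) had the smaller difference of 1.84 ± 0.12. On the AST side were laminin α2 (Lama2, -1.01 ± 0.13), the integrin chains Itgb8 (-4.99 ± 0.23) and Itgb5 (-2.70 ± 0.12) and dystroglycan (Dag1, -1.80 ± 0.10), which anchors the endfoot to the membrane. Pericyte and smooth muscle markers, whose cells also make basement membrane, summed to 714 to 1678 CPM in AST libraries and 2795 to 5041 CPM in EC libraries, with 9 of 12 tested higher in ECs. Their part in these differences was not tested.

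Antigen presentation and interferon genes were higher in ECs for 19 of 20 members (median 2.74), against 38.6% of all genes tested. The MHC class I chain H2-K1 was at 59.3, 52.8, 68.4 and 64.3 CPM in astrocytes and at 176, 193, 1449 and 667 CPM in ECs (2.72 ± 0.48, edgeR adjusted p = 0.00126). Its light chain B2m was at 60.9, 65.2, 78.1 and 87.4 against 319, 333, 1484 and 823 CPM (2.97 ± 0.33). The EC libraries of animals 18 and 21 held most of both transcripts, while the AST libraries stayed within a narrow range. Microglia and macrophage markers, which were higher in ECs for 9 of 10 tested, summed in EC libraries to 93.9, 89.98, 318 and 297 CPM and in AST libraries to 23.7 to 31.3 CPM. Their part in the MHC values was not tested. Ly6e, an interferon-induced surface protein, showed no such spread, at 3.43, 3.44, 6.56 and 6.48 CPM in astrocytes and 842, 812, 844 and 764 CPM in ECs (7.32 ± 0.24).

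On the AST side, 15 of 16 endfoot genes were higher in astrocytes (median -4.62), against 39.0% of all genes tested. The water channel Aqp4 was at 2080.4, 2359, 2245 and 2131 CPM in astrocytes and 37.8, 39.6, 76.1 and 68.6 CPM in ECs (-5.45 ± 0.24, edgeR adjusted p = 6.75e-07). The potassium channel Kcnj10 was at 1081, 639, 1033 and 893 against 28.5, 17.6, 59.8 and 39.00 CPM (-4.84 ± 0.23). Mlc1, a membrane protein of endfeet, was at 2051, 2210.3, 2156 and 2051 against 37.9, 43.8, 79.3 and 73.03 CPM (-5.32 ± 0.24). For all 3 the EC values were a few percent of the AST values, as for most astrocyte markers, and were higher in animals 18 and 21 than in the others. Connexin 43 (Gja1), which couples astrocytes, was less uneven at 2374, 2181, 2198 and 1972 against 181, 252, 205 and 209.5 CPM (-3.45 ± 0.15). In the dystroglycan complex the anchoring protein Dtna (-5.42 ± 0.33) was strongly on the AST side, dystroglycan and dystrophin (Dmd, -1.91 ± 0.12) less so. Utrophin (Utrn), a relative of dystrophin, was higher in ECs at 582, 419, 448 and 425 CPM against 80.5, 82.5, 59.9 and 70.2 CPM in astrocytes (2.60 ± 0.12).

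Uptake of transmitters and potassium separated the cells in the same way. Of 19 members, 17 were higher in astrocytes (median -4.54), against 39.0% of all genes tested. The glutamate transporters Slc1a2 and Slc1a3 were at 17937, 17078, 13158 and 13829.7 and 12701, 12150.2, 10558 and 11932 CPM in astrocytes and at 370.5, 304, 534 and 553 and 191, 211, 332 and 382 CPM in ECs. Glutamine synthetase, which turns captured glutamate into glutamine, was less uneven (-2.69 ± 0.17), with 1291, 1038, 1414 and 1303 CPM in ECs. Of the 2 members higher in ECs, the taurine carrier Slc6a6 was at 69.5, 35.8, 27.7 and 26.8 CPM in astrocytes and 1869.5, 952, 1497 and 1261 CPM in ECs (5.12 ± 0.23).

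Of 25 transcription factors of astrocytes and their progenitors, 24 were higher in astrocytes (median -4.76), against 39.0% of all genes tested. None was higher in ECs. Sox2 was at 288, 219, 323 and 304 against 5.63, 6.74, 14.7 and 11.1 CPM (-5.04 ± 0.21), Rfx4 at -5.59 ± 0.24, Lhx2 at -5.15 ± 0.17 and Pax6 at -4.95 ± 0.12. Nfia (-1.38 ± 0.12) and Zbtb20 (-1.87 ± 0.17), which many cell types use, had smaller differences. Sox9 was the astrocyte marker with the highest relative EC level, 211, 170.5, 222 and 212 CPM in astrocytes and 19.1, 41.3, 22.9 and 26.6 CPM in ECs (-3.02 ± 0.24), and among EC libraries that of animal 13 stood highest.

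Factors by which astrocytes build and prune synapses were higher in astrocytes for 15 of 18 members (median -3.59), against 39.0% of all genes. They included the AMPA receptor organiser Chrdl1 (-5.56 ± 0.30), the glypicans Gpc5 (-5.42 ± 0.23) and Gpc4 (-2.22 ± 0.12), the engulfment receptors Megf10 (-5.57 ± 0.28) and Mertk (-2.80 ± 0.20), and Nlgn3 (-4.42 ± 0.26). The bridging ligand Pros1, which links dying membrane to Mertk, was higher in ECs, at 198, 191, 179.8 and 190.5 CPM against 48.9, 48.01, 46.5 and 51.1 CPM (1.89 ± 0.07), and its relative Gas6, with overlapping groups, was near even (-0.47 ± 0.11).

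Lipid and sterol genes were higher in astrocytes for 19 of 24 members (median -2.76), against 39.0% of all genes tested. Apoe was at 17469, 16692, 19003 and 16182 CPM in astrocytes and 622, 835, 1093 and 1031 CPM in ECs (-4.38 ± 0.22). The cholesterol synthesis gene Hmgcs1 was on the AST side at -2.85 ± 0.12, and the desaturase Scd2 at -2.85 ± 0.13. On the EC side were the phospholipid transfer protein Pltp (3.81 ± 0.11), the sterol exporter Abcg1 (5.47 ± 0.11) and the lipoprotein receptor Lrp8 (3.04 ± 0.10). The exporter Abca1 was abundant in both, at 549.6, 529, 436 and 479.5 CPM in astrocytes and 534, 515, 698 and 685 CPM in ECs, overlapping and not called (0.20 ± 0.15, edgeR adjusted p = 0.261). In animals 18 and 21 alone Abca1 was called higher in ECs (0.53, adjusted p = 0.000797).

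Energy genes followed with 17 of 25 glycolysis, lactate and glycogen genes higher in astrocytes and 6 in ECs (median -1.10). Over all genes tested the shares were 39.0% and 38.6%. Aldolase C (Aldoc, -5.20 ± 0.28), the glycogen regulator Ppp1r3c (-4.86 ± 0.17) and lactate dehydrogenase B (Ldhb) were on the AST side, the last at 667, 625, 747 and 691 against 59.5, 70.03, 79.5 and 81.1 CPM (-3.32 ± 0.11). Lactate dehydrogenase A (Ldha) was higher in ECs, at 581, 489, 438 and 415 against 279, 238, 285 and 268 CPM (0.76 ± 0.11), as was the lactate carrier Slc16a1 at 4297, 5169, 4330.01 and 3974 against 114, 116, 122 and 117 CPM (5.16 ± 0.15).

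Of 16 thyroid hormone and retinoid genes tested, 9 were higher in astrocytes and 5 in ECs, against 39.0% and 38.6% of all genes tested. The thyroxine carrier Slco1c1 was higher in ECs (above), while the deiodinase that activates it, Dio2, was at 1149, 1572, 1139 and 1077 CPM in astrocytes and 22.4, 26.8, 48.03 and 50.1 CPM in ECs (-5.21 ± 0.31). For retinoids, the uptake receptor Stra6 was higher in ECs (5.28 ± 0.11) and the acid-forming enzymes Aldh1a1 (-3.71 ± 0.14) and Aldh1a2 (-2.96 ± 0.25) were higher in astrocytes.

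**Figure D3:**
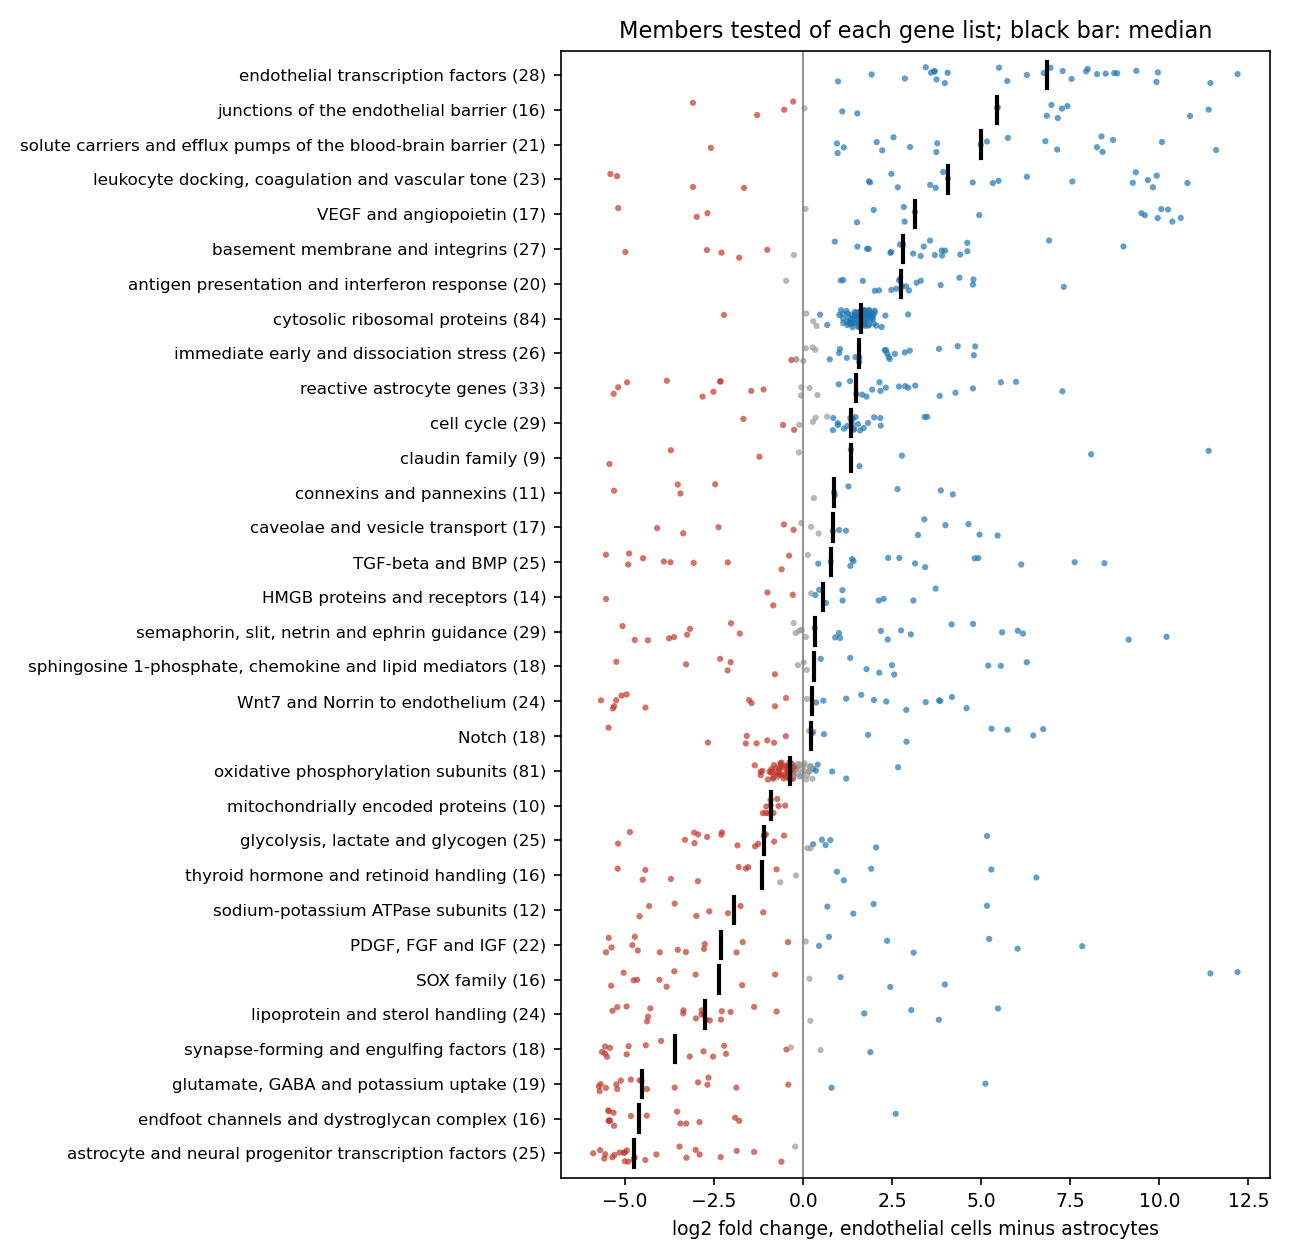
Log2 fold change (EC minus AST) of the members tested of 32 gene lists, 1 point a gene, blue where higher in ECs, red where higher in astrocytes and grey where not called, with the number tested in brackets and the median as a black bar. Endothelial transcription factors (6.85) are at the top and astrocyte transcription factors (-4.76) at the bottom, and signalling lists near the middle hold members far out on both sides.

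Gene families held members on both sides, as did all genes tested (38.6% higher in ECs, 39.0% in astrocytes). Of 9 claudins tested, 5 were higher in ECs and 3 in astrocytes. Cldn5 led the ECs, and Cldn10, a claudin with ion-conducting forms, was at 294, 275, 282 and 267 CPM in astrocytes and 5.32, 5.04, 8.63 and 8.96 CPM in ECs (-5.44 ± 0.20). Of 11 connexins and pannexins tested, 6 were higher in ECs and 4 in astrocytes, with Gja4 (3.87 ± 0.46) and Gja5 (4.20 ± 0.27), connexins of arterial vessels, and Gjc1 (2.65 ± 0.11) higher in ECs, and Gja1, Gjb6 (-5.31 ± 0.21) and Gjb2 (-3.52 ± 0.29) higher in astrocytes. Gja4 was at 9.97, 10.3, 2.37 and 3.07 CPM in astrocytes, with animals 2 and 13 above the others, and 91.4, 67.2, 107 and 96.4 CPM in ECs.

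Of 12 chains and regulators of the sodium-potassium pump, 8 were higher in astrocytes and 4 in ECs, against 39.0% and 38.6% of all genes. Of the β chains, Atp1b2 (-4.59 ± 0.17) and Atp1b1 (-3.00 ± 0.14) were higher in astrocytes and Atp1b3 (0.68 ± 0.09) in ECs, and the regulators Fxyd1 (-4.33 ± 0.16) and Fxyd5 (5.16 ± 0.26) fell on either side. In the SOX family the F group factors Sox7 (3.98 ± 0.11), Sox17 and Sox18 were higher in ECs, and Sox2, Sox8 (-3.62 ± 0.20), Sox9 and Sox21 (-4.76 ± 0.15) in astrocytes.

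Signals and receptors were examined pathway by pathway. Their counts stand against 38.6% of all genes tested higher in ECs and 39.0% higher in astrocytes. VEGF and angiopoietin genes were higher in ECs for 13 of 17 and in astrocytes for 3. The ligand Vegfa was at 719.9, 693, 550.4 and 496 CPM in astrocytes and 13.6, 15.8, 20.4 and 21.1 CPM in ECs (-5.19 ± 0.24). The receptor Kdr was at 2.54, 2.05, 3.08 and 2.64 CPM in astrocytes and 2896, 2317, 2795 and 2756 CPM in ECs (9.95 ± 0.17). Flt1, a receptor that also traps the ligand, was at 9.50 ± 0.36, and Vegfb had the direction of Vegfa (-2.69 ± 0.09). The angiopoietin ligand Angpt1 was at 31.9, 23.96, 33.8 and 44.5 CPM in astrocytes and 4.33, 3.67, 4.21 and 5.35 CPM in ECs (-2.99 ± 0.11), against its receptor Tek at 10.25 ± 0.37 (10.94 without animal 13). The ligands Vegfa, Vegfb and Angpt1 were thus on the side opposite the receptors Kdr, Flt1 and Tek. These 3 ligands were the only members of the list called higher in astrocytes. The groups did not overlap for any of the genes named, which held for 74.3% of all genes tested. Other members of the list were not compared in this way.

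Of 24 genes of the WNT7 and Norrin signals that induce the barrier, 12 were higher in ECs and 11 in astrocytes. Wnt7a was at 90.5, 75.1, 121 and 94.02 CPM in astrocytes and 1.65, 1.56, 3.76 and 3.297 CPM in ECs (-5.34 ± 0.17), Wnt7b at -5.25 ± 0.16 and the Norrin gene Ndp at -5.31 ± 0.18, all with EC values at the level of astrocyte markers. Of the receptor complex, Fzd4 was at 64.1, 58.5, 50.3 and 41.8 against 356, 319, 238 and 233 CPM (2.33 ± 0.08), and Adgra2, the co-receptor for WNT7, at 4.59 ± 0.15. Reck (0.57 ± 0.14), its partner, whose groups overlapped and whose call was lost without the block (adjusted p = 0.0511), and Lrp5 (1.63 ± 0.10) had small differences in favour of ECs, and Tspan12, the co-activator of the Norrin receptor, a small one in favour of astrocytes (-0.48 ± 0.07). Among targets of the pathway, Apcdd1 was at 184, 148, 202 and 246 CPM in astrocytes and 3445, 3565, 3867 and 3798 CPM in ECs (4.18 ± 0.16), whereas Axin2 was at 86.1, 73.7, 62.9 and 67.8 and 72.2, 75.4, 86.99 and 94.4 CPM and was not called (0.10 ± 0.14, edgeR adjusted p = 0.511). In animals 18 and 21 alone Axin2 was called higher in ECs (0.41, adjusted p = 0.00153).

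PDGF, FGF and IGF genes were higher in astrocytes for 14 of 22 members and in ECs for 7. Pdgfb, the EC signal that recruits pericytes, was at 2.49, 1.95, 1.97 and 1.25 CPM in astrocytes and 493, 453, 453 and 426 CPM in ECs (7.84 ± 0.16), and Igf1r at 3.10 ± 0.10. Fgf2 (-2.79 ± 0.14) and its receptors Fgfr2 (-4.73 ± 0.18) and Fgfr3 (-5.46 ± 0.24), and Egfr (-4.80 ± 0.15), were on the AST side.

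Of 18 Notch genes tested, 8 were higher in each cell type, shares near the 38.6% and 39.0% of all genes tested. The ligands Dll4 (6.46 ± 0.17) and Jag1 (2.90 ± 0.09) and the receptor Notch4 (5.29 ± 0.13) were higher in ECs, and the ligand Dll1 (-1.01 ± 0.18), the receptor Notch2 (-2.68 ± 0.14) and the target Hes5 (-5.46 ± 0.16) in astrocytes. Another target, Hes1, was higher in ECs (1.82 ± 0.15). BMP and TGF-β genes were divided 14 to 10 of 25, with the EC receptors Acvrl1 (8.46 ± 0.21) and Eng (7.62 ± 0.30), the receptor Tgfbr2 (4.92 ± 0.15), the ligand Tgfb1 (4.82 ± 0.15) and the target Id1 (2.702 ± 0.14) on the EC side. The receptors Bmpr1a (-3.73 ± 0.11) and Bmpr1b (-5.54 ± 0.24), the ligand Bmp7 (-4.50 ± 0.09) and the target Id4 (-4.91 ± 0.17) were on the AST side.

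Of 18 genes of sphingosine 1-phosphate, chemokines and lipid mediators, 9 were higher in ECs and 6 in astrocytes. The sphingosine 1-phosphate receptor S1pr1 was at 1965, 1443, 1452 and 1250.2 CPM in astrocytes and 463, 415, 359.7 and 325 CPM in ECs (-2.04 ± 0.11). The exporter of its ligand, Spns2, was at 1.19, 2.000, 2.02 and 1.69 against 135, 149.5, 142 and 137 CPM (6.28 ± 0.12) and the lyase Sgpl1 was higher in astrocytes (-2.12 ± 0.11). The chemokine Cxcl12 (5.20 ± 0.20) and its scavenger receptor Ackr3 (2.56 ± 0.15) were higher in ECs. Guidance genes were divided 15 to 9 of 29, with Robo4 (10.20 ± 0.16), Sema3g (9.14 ± 0.20), Plxnd1 (4.17 ± 0.12) and Unc5b (4.77 ± 0.15) on the EC side and Plxnb1 (-3.18 ± 0.17), Robo2 (-4.73 ± 0.17) and Epha5 (-5.07 ± 0.24) on the AST side.

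**Figure D4:**
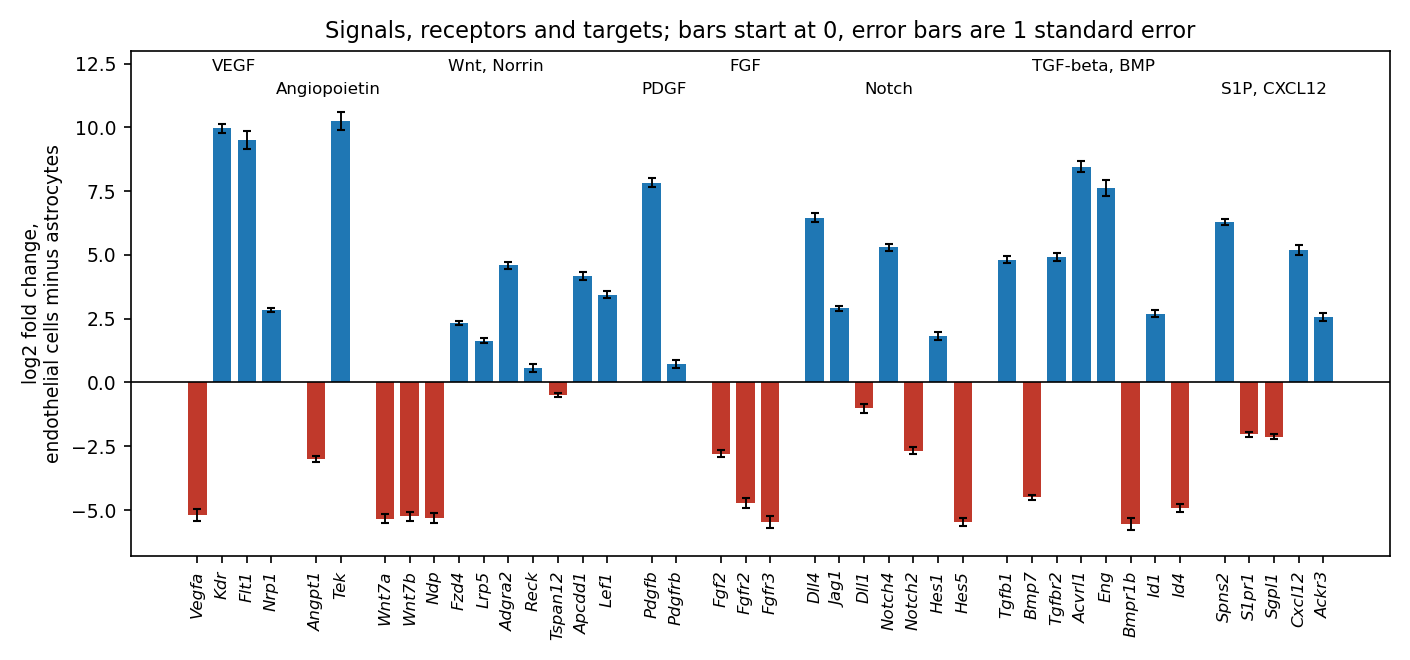
Log2 fold change (EC minus AST) with its standard error for signals, receptors and targets, grouped by pathway, blue bars higher in ECs and red bars higher in astrocytes. Vegfa, Angpt1, Wnt7a, Wnt7b and Ndp point down and their receptors Kdr, Tek, Fzd4 and Adgra2 point up, while Pdgfb and Spns2 point up and S1pr1 down.

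Of 14 HMGB proteins and receptors tested, 9 were higher in ECs and 4 in astrocytes, against 38.6% and 39.0% of all genes. Hmgb2 was at 30.7, 54.5, 59.9 and 78.9 CPM in astrocytes and 123, 133, 127 and 102 CPM in ECs (1.10 ± 0.23). Hmgb3, close to even and with overlapping groups, was at 27.00, 35.5, 48.03 and 44.9 and 28.2, 31.3, 36.1 and 35.9 CPM (-0.29 ± 0.09, edgeR adjusted p = 0.0218). The call for Hmgb3 was lost without animal 18 (0.117) or 21 (0.0906), without the block (0.0812) and without TMM scaling (0.0777). The receptor Tlr4 was low in both, at 2.75, 3.49, 1.61 and 2.98 against 16.9, 10.5, 12.1 and 14.99 CPM (2.26 ± 0.23). Ptprz1, a receptor phosphatase of astrocytes and precursors, was at 5494, 7009, 6756 and 7898 CPM in astrocytes and 90.4, 102, 223 and 266 CPM in ECs (-5.54 ± 0.30).

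The 6 astrocyte genes that the study singled out were chosen on astrocyte libraries that include these 4, so their direction here is not independent of that choice. Arhgef28, a guanine nucleotide exchange factor, was at 2.49, 5.49, 5.45 and 2.59 CPM in astrocytes and 59.3, 53.8, 50.6 and 55.3 CPM in ECs (3.74 ± 0.24). Lurap1l was at 2.596, 2.28, 3.53 and 5.101 against 32.97, 31.8, 34.4 and 34.5 CPM (3.27 ± 0.19), and the guidance ligand Slit1 at 3.48, 5.91, 5.45 and 6.23 against 0.357, 0.459, 0.498 and 0.435 CPM (-3.62 ± 0.23). Ptger4 and Teddm2 did not pass the test, and Camk1g was too low to be tested.

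Genes used as signs of reactive astrocytes were higher in ECs for 19 of 33 tested and in astrocytes for 10 (median 1.49). For all genes tested these shares were 38.6% and 39.0%. Gfap was at 1882, 1328, 1461 and 1902 CPM in astrocytes and 42.7, 43.3, 71.4 and 72.3 CPM in ECs (-4.94 ± 0.22) and Serpina3n at -5.32 ± 0.22, whereas vimentin (Vim) was higher in ECs, at 1375, 1384, 1281 and 1221 against 287, 328, 309 and 385 CPM (1.94 ± 0.13), as were Osmr (1.49 ± 0.10) and Tm4sf1 (2.32 ± 0.09).

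Cell cycle genes were higher in ECs for 22 of 29 and in astrocytes for 3 (median 1.35), against 38.6% and 39.0% of all genes. Mki67, a mark of cycling cells, was at 20.7, 48.6, 56.2 and 79.5 CPM in astrocytes and 124, 117, 148 and 116 CPM in ECs (1.35 ± 0.28), and the AST library of animal 2 was lowest. Cyclins D parted, Ccnd1 being higher in ECs (2.18 ± 0.19) and Ccnd2 in astrocytes (-1.68 ± 0.16). Immediate early and dissociation stress genes were higher in ECs for 19 of 26 (median 1.57), among them Jun at 318, 466, 580.1 and 651 against 1296, 1598, 1815 and 1447 CPM (1.57 ± 0.16), Atf3 (3.81 ± 0.23) and Ier2 (2.57 ± 0.25). ECs were captured before astrocytes, and the part of handling in these values was not tested. Egr1 did not pass the test, at 188, 250.3, 341 and 436 CPM in astrocytes and 175, 262, 330.4 and 336 CPM in ECs (-0.19 ± 0.10, edgeR adjusted p = 0.125). Egr1 was called higher in astrocytes with upper quartile factors (-0.31, adjusted p = 0.0249) and in animals 18 and 21 alone (-0.28, adjusted p = 0.037).

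Ribosomal protein genes were higher in ECs for 80 of 84 tested (median 1.62). Over all genes tested, 38.6% were higher in ECs and 39.0% in astrocytes. Rplp1 was at 155, 185, 267 and 271 CPM in astrocytes and 495, 613, 537 and 503 CPM in ECs (1.25 ± 0.16). Rpl3l, a muscle form, was the ribosomal member higher in astrocytes (-2.23 ± 0.37, at most 2.84 CPM). Oxidative phosphorylation subunits of the nucleus were higher in astrocytes for 53 of 81 by small amounts (median -0.38), and 10 of 10 mitochondrially encoded genes tested were higher in astrocytes (median -0.91). Ribosomal protein genes and mitochondrial genes have many near-identical copies in the genome, and how reads were shared among them is not given in the sources used here.

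Markers of other cells differed between the isolates. Their counts stand beside 38.6% of all genes tested higher in ECs and 39.0% higher in astrocytes. Oligodendrocyte markers were higher in ECs for 10 of 11 and summed to 631 to 1172 CPM in AST and 1613 to 3577 CPM in EC libraries, with Mbp at 73.9, 143, 256 and 128 against 502, 699, 984 and 449.8 CPM (2.12 ± 0.16). Precursor markers were higher in astrocytes for 6 of 9 and summed to 2394 to 2779 CPM in AST and 264 to 334 CPM in EC libraries. Neuron markers were higher in astrocytes for 5 of 10 tested and in ECs for 1, against 39.0% and 38.6% of all genes tested. They summed to 447 to 539 CPM in AST and 51.0 to 59.3 CPM in EC libraries, without overlap. Snap25 was at 1.71, 2.000, 10.998 and 17.98 CPM in astrocytes, more in animals 18 and 21, and 1.52, 1.24, 1.27 and 1.93 CPM in ECs, with overlap (-1.99 ± 0.55). Without animal 18 the call for Snap25 was lost (edgeR adjusted p = 0.0530). Erythroid markers were higher in ECs for 6 of 6 by small amounts (median 0.53), Hbb-bs being at 278, 310.5, 754 and 948 CPM in astrocytes and 519, 633, 1029 and 1414 CPM in ECs (0.66 ± 0.13), higher in animals 18 and 21 in both cell types, and its call was lost without the block (adjusted p = 0.231). The choroid plexus gene Ttr was at 6.02, 15.3, 5.25 and 102 CPM in astrocytes and 16.4, 98.4, 2.27 and 1088 CPM in ECs, so that its mean rests on animal 21 (1.91 ± 0.64, edgeR adjusted p = 0.0265). The call for Ttr was lost without animal 2 (0.0550), 13 (0.123) or 21 (0.0862), without the block (0.0972) and by DESeq2 (0.0678). Fibroblast and meninges markers were higher in astrocytes for 7 of 9. This list shares Pdgfra with the precursor list, so their counts are not independent. Of 9 ependyma and choroid plexus markers, 5 were higher in astrocytes and 2 in ECs, with the ciliary gene Foxj1 at 78.9, 69.6, 70.98 and 57.2 against 2.59, 3.12, 3.98 and 2.55 CPM (-4.58 ± 0.14).

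The cell type difference of the mutants was then set against that of the wild types, in a fit of all 16 libraries that tests the difference of the differences. Of 17493 genes tested, 3 passed (0.0171%), against 535 with an unadjusted p under 0.05. Hmgb1 was among them: its EC excess was 2.12 in mutants and 0.82 ± 0.10 in wild types, a difference of 1.32 ± 0.15 (edgeR adjusted p = 0.0286).

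Esr1, the oestrogen receptor α, changed sides. Mutant astrocytes held 6.96, 5.91, 10.2 and 5.66 CPM and mutant ECs 1.16, 1.79, 1.72 and 1.99 CPM (-2.17 ± 0.25). Wild-type astrocytes held 0.266, 0.116, 0.113 and 0.102 CPM and wild-type ECs 1.58, 2.15, 1.86 and 2.64 CPM (3.65 ± 0.40). The EC libraries of both genotypes overlapped, every mutant AST library was above all of them, and every wild-type AST library was below (-5.81 ± 0.48 between genotypes, edgeR adjusted p = 0.00492). The mutants' transgene joins Cre to a ligand-binding domain of the oestrogen receptor, and in counts per gene, reads from the transgene cannot be told apart from reads of Esr1 itself.

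Cdkn1a, the cell cycle inhibitor p21, was at 9.55, 15.1, 12.6 and 11.1 CPM in mutant astrocytes and 126, 183, 123 and 138 CPM in mutant ECs (3.48 ± 0.10). It was at 5.59, 6.604, 6.86 and 5.62 CPM in wild-type astrocytes and 137, 165, 151 and 150.4 CPM in wild-type ECs (4.55 ± 0.09). AST libraries of the genotypes did not overlap and EC libraries did (-1.06 ± 0.12, edgeR adjusted p = 0.0286). The call for Cdkn1a was lost without the animal as a block (adjusted p = 0.52), and leaving out 1 animal at a time ended it each time, with adjusted p between 0.0984 and 0.174. That for Hmgb1 was lost without animal 2, 5, 9, 13, 18, 19 or 22, with adjusted p between 0.0519 and 0.174. Trim68 (0.78 ± 0.14) and Abhd8 (-0.55 ± 0.11), the next by p, did not pass (adjusted p of 1 for both).

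**Figure D5:**
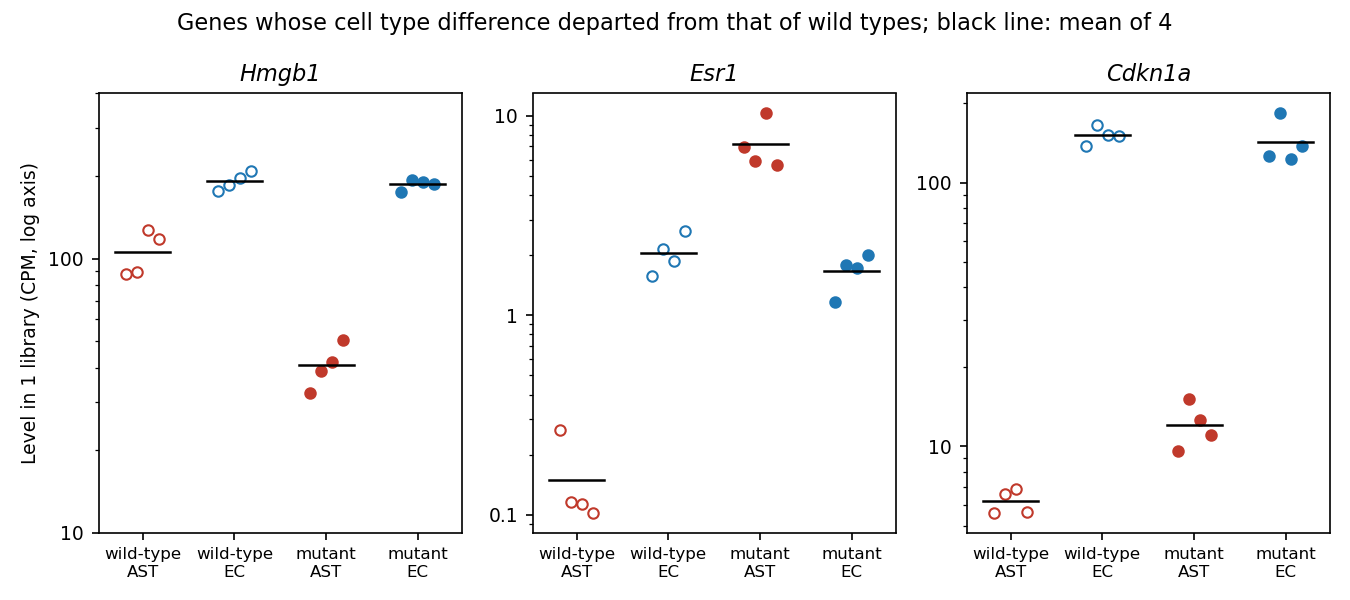
CPM on a log axis of Hmgb1, Esr1 and Cdkn1a in all 16 libraries, open circles wild type and filled circles mutant, red astrocytes and blue ECs, with the mean of 4 as a black line. EC values of the genotypes overlap for each gene, while mutant AST values are lower for Hmgb1 (mean 41.0 against 106 CPM) and higher for Esr1 (7.19 against 0.149 CPM) and Cdkn1a (12.1 against 6.17 CPM).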

How the data were processed

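RNA of cortical isolates was sequenced. The authors trimmed reads, aligned them to GRCm39 with STAR 2.7.9a and deposited raw read counts per gene without normalization. The strand setting and the annotation release are not given in the sources used here, and 192 of 331 named genes overlap another annotated gene.

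Counts were tested with edgeR 4.0.16 (R 4.3.3): TMM scaling, the default expression filter, the quasi-likelihood test and Benjamini-Hochberg adjustment over all genes tested, with the animal as a block. EC and AST libraries of the same number come from the same animal. Their deviations from the group means correlated at 0.350, 0.197, 0.436 and 0.233 over 9790 genes, though astrocytes of animal 13 correlated more with ECs of animal 2 (0.262) than with their own. The difference between genotypes came from a fit of all 16 libraries. TPM used exonic lengths of GENCODE vM39, which held 98.7% of the 56980 identifiers. DESeq2 1.42.0, limma 3.58.1 (voom), other scalings and filters, no block, and leaving out each animal, and the longest transcript's length were tried. The fits were tested on simulated counts in which only a small share of genes was changed. Scaling under as many differences as between these cell types was not tested that way.

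The comparison and the gene lists were chosen with earlier results of these data known. Genes were named as Hmgb1, core list members and the 12 largest changes each way (protein coding, at least 20 CPM, same direction in 4 animals). Further ones were the 10 highest TPM per cell type (nuclear, protein coding), up to 3 list members against the majority, and the 5 smallest p between genotypes. The labels do not say that animals were independent litters. Some genes of these lists are not reported here.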

Additional observations from a re-analysis of the deposited data

Results flagged for a closer look

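The cell type difference changed with genotype for 3 genes, each by the test of the difference itself (edgeR): Hmgb1 by 1.32, Esr1 by -5.81 and Cdkn1a by -1.06 on the log2 scale, mutant minus wild type. Both cell types' values for each stand in the report.

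In 16 of 427 checks of a gene in 4 libraries, 1 library stood far from the other 3. Chance gives about 1 in 20, so the number flagged is no more than chance would give. Among AST libraries, animal 13 was high for Acvrl1 (2.33 CPM, others up to 1.31), Agrn (509 CPM, others up to 426) and Dio2 (1572 CPM, others up to 1149) and low for Sparc (873 CPM, others from 1104). Animal 18 was high for Cldn5 (2.37 CPM, others up to 0.994) and low for Notch2 (139.5 CPM, others from 162). Animal 2 was low for Cgn (0.727 CPM, others from 1.21) and high for Cyp4f15 (202 CPM, others up to 124), and animal 21 was high for Icam1 (4.24 CPM, others up to 1.82), Tspan12 (191 CPM, others up to 170.3) and Ttr (102 CPM, others up to 15.3). Among EC libraries, animal 2 was high for Ccnd2 (79.8 CPM, others up to 60.5), and animal 13 for Slc7a5 (3192 CPM, others up to 2572). Animal 21 was high for Fxyd1 (6.72 CPM, others up to 3.90) and Ttr (1088 CPM, others up to 98.4) and low for Slco1c1 (3072 CPM, others from 3435).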

How the results depend on the processing

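The count of 12796 genes called became 12860 with no replicate block (6406 higher in ECs, 6454 in astrocytes), 12415 by DESeq2 and 13079 by limma-voom, and 11968 to 12416 when 1 animal was left out. A test against a log2 fold change of 1 (glmTreat) called 6755 genes, 3040 higher in ECs and 3715 in astrocytes. Scaling moved the division of calls: upper quartile factors gave 5747 higher in ECs and 6972 in astrocytes with a median over all genes of -0.109, and library size alone 6779 and 6083. For the difference between genotypes DESeq2 called 5 genes, adding Trim68 and Abhd8, and leaving out 1 animal called 1 to 2. Values near 0 changed sign. With only the animals that had Y-linked transcripts, Abca1 was at -0.12 and Axin2 at -0.19, Ptger4 at -0.0694, and the list medians were 0.51 for neuron markers, -0.0127 for WNT7 and Norrin genes and -0.00739 for claudins. With upper quartile factors Axin2 was at -0.016 and Ptger4 at -0.017, and Ptger4 lay between -0.18 and 0.33 when 1 animal was left out. Claudins had a median of -1.23 where 1 CPM in 4 libraries was required, and that of a list of the genes singled out by the study plus Esr1 lay between -0.446 and 0.00214 when 1 animal was left out. The cause of these changes was not tested.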

Other observations

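Long noncoding RNAs, which the lists left out, are given by their shares: of 1532 tested, 425 (27.7%) were higher in ECs and 674 (44.0%) in astrocytes, against 38.6% and 39.0% of all genes tested. The genes named here were chosen after their values were seen. Foxl2os, Gm56622 and Bvht were higher in ECs, with mean levels there of 46.4, 26.3 and 41.2 CPM and log2 fold changes of 10.04, 10.45 and 5.24. The value for Foxl2os was 10.90 without animal 13 and that for Gm56622 12.13 without animal 2. Host transcripts of neural microRNAs were higher in astrocytes: Mir124-2hg had a log2 fold change of -5.40 and Mir9-2hg of -5.32, and Gm3764, at 964 CPM in astrocytes against 19.1 CPM in ECs, had -5.84.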
